A study of Mus musculus with 8 samples.

Results

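The cells described here are capillary endothelial cells of mouse mesentery and epididymal fat in which at least 1 transcript of Aplnr, Nepn or Esm1 was counted. A transcript is counted as a UMI, a molecular tag that marks 1 captured RNA molecule. Cells had to hold at least 500 UMIs and 300 genes, with at most 10% of UMIs from mitochondrial genes. They also needed a UMI of at least 3 of the 6 capillary genes Gpihbp1, Cd300lg, Rgcc, Car4, Timp4 and Tcf15, a UMI of the endothelial genes Pecam1 or Cdh5, and none of Gja5, Selp, Prox1, Ptprc, Adipoq or Cxcl9. Of 27944 barcodes, 23996 passed the quality limits, and 3426 of these passed every condition other than the one on Aplnr, Nepn and Esm1 ("gated capillary cells"). Among the gated cells 1435 held a UMI of at least 1 of the 3 genes ("positive capillary cells"), which is 41.89% of gated cells and 5.98% of all cells that passed. The other 1991 held none ("negative capillary cells"). The 3 genes chose the cells, so their levels within the positive cells are a description and carry no test.

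All mice were male, carried the ROSA26-eYFP reporter on both alleles with the Cdh5-CreERT2 transgene, and received tamoxifen in the diet for 2 weeks from 6 weeks of age. Cdh5 is the endothelial cadherin gene, so its promoter drives the recombinase, and with it the YFP mark, in endothelial cells. The diets began at 8 weeks of age and lasted 12 to 13 weeks: chow with 5.8% fat, or food with 60% fat, called high fat here. After that, mesentery or epididymal adipose tissue from 6 mice was combined for each library, dissociated with the transcription inhibitor actinomycin D present, and sorted by flow cytometry, with YFP and unmarked tissue as controls. Single-cell libraries were made for the 4 combinations of tissue and diet (mesentery chow, mesentery high fat, adipose chow, adipose high fat), and the whole experiment was repeated, giving runs A and B with 1 library per group in each. The 2 libraries of a group are independent repeats, each a pool of mice. Cells from 1 pool share their mice and are not replicates, so every comparison was made over libraries.

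Capillaries are where blood and tissue exchange fluid, fatty acids and glucose. In fat their endothelium carries Gpihbp1, which holds lipoprotein lipase at the vessel surface, and Car4, a carbonic anhydrase of the cell surface. Aplnr encodes the receptor for apelin, a peptide known for its part in vessel growth, and is also found in veins. Esm1 encodes endocan, a secreted proteoglycan induced by VEGF and widely used as a marker of tip cells, the cells that lead a new sprout. Nepn encodes nephrocan, a secreted protein with leucine-rich repeats. In the GRCm38 assembly, Aplnr (ENSMUSG00000044338) lies at chr2:85136225-85139923 on the plus strand, Nepn (ENSMUSG00000038624) at chr10:52388972-52404625 on the plus strand and Esm1 (ENSMUSG00000042379) at chr13:113209659-113218098 on the plus strand.

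The positive cells were spread very unevenly over the 2 runs. Run A gave 13, 5, 4 and 21 of them in mesentery chow, mesentery high fat, adipose chow and adipose high fat, and run B gave 230, 475, 231 and 456 in the same order, which is 97.0% of the total. Values per library below are given in this order of groups. The positive cells held 7002815 UMIs in all, and their median per cell in run B was 3671.5 to 4669 UMIs, against 2258 to 3084 in negative cells. A cell with more UMIs has a higher chance of showing a UMI of any gene, so comparisons with negative cells were repeated after drawing 2000 UMIs from each cell. The exclusions removed many cells. Before them 6030 cells would have been positive, of which 3793 held Cxcl9 and 1951 held Adipoq, the adiponectin gene of adipocytes, and in adipose chow B 2421 cells became 231. At the edge of the rule, 179 positive cells held exactly 3 of the 6 capillary genes and 107 further cells held 2 of 6 and met every other condition. Of the positive cells, 701 held a single UMI over the 3 genes and 734 held at least 2. The 10 general endothelial genes Tie1, Tek, Egfl7, Esam, Cldn5, Emcn, Eng, Erg, Robo4 and Ecscr, which the rule did not use, summed to 5709.5 to 6347.0 CPM, the usual scaling of counts to 1 common library total, in the positive cells of run B. A doublet caller marked 0.27% of all cells at its automatic limit, under what such a caller should find. At a limit set from the number of barcodes it marked 3.58%, including 35 positive cells. No barcode was shared between positive cells of different libraries, and 0 to 9 were shared between any pair of libraries over all cells.

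Most positive cells held a UMI of only 1 of Aplnr, Nepn and Esm1. Aplnr was present in 922 positive cells (64.25%), Nepn in 481 (33.52%) and Esm1 in 200 (13.94%), with up to 17, 20 and 16 UMIs in a single cell. Aplnr was the only one of the 3 in 764 cells, Nepn in 352 and Esm1 in 153. Both Aplnr and Nepn were counted in 121 cells, both Aplnr and Esm1 in 39, both Nepn and Esm1 in 10, and all 3 in 2. In run B, 120 cells held Aplnr with Nepn, 39 held Aplnr with Esm1 and 10 held Nepn with Esm1. The products of the 2 genes' shares of gated cells, library by library, would give 135.4, 45.9 and 17.7 cells. All 3 numbers found lay below their products, and in proportion Nepn with Esm1 lay furthest below, at 10. Single libraries went both ways: Aplnr with Esm1 was 5 against 12.6 in mesentery high fat B and 10 against 8.3 in adipose chow B. The products take no account of depth, which differs between cells, so they cannot tell whether the genes are related. This is a description with no test. Since 701 cells rest on 1 UMI, a cell with only 1 of the genes may still express another below detection.

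Without drawing UMIs, the share of gated capillary cells with an Esm1 UMI was lower in every high fat library than in every chow library. After drawing 2000 UMIs per cell this order was broken. Mesentery high fat A then had 7.14% (1 of 14 cells), above adipose chow B with 4.71%. The values that follow are without drawing. In run A it was 12.12% in mesentery chow, 4.0% in mesentery high fat, 11.11% in adipose chow and 0% in adipose high fat, where 0 of 65 cells allow a share of up to 4.62%. In run B it was 14.31%, 3.66%, 7.49% and 1.48%. The mean was 2.28% ± 1.89 on high fat diet and 11.26% ± 2.84 on chow (SD, n = 4 libraries each), a difference of -8.97 percentage points, lower in 4 of 4 tissue and run pairs (two-sided exact permutation p = 0.0286, the smallest that 4 against 4 libraries allow, and 0.172 after Benjamini-Hochberg adjustment over 6 comparisons of 3 genes by diet and tissue). The call did not hold without adipose high fat A, where the difference was -8.21, or without adipose high fat B, where it was -8.7 (exact permutation p = 0.0571 for both). Between tissues Esm1 shares differed by 3.5 percentage points (exact permutation p = 0.4), with mesentery higher in 4 of 4 pairs of the same diet and run (exact sign-flip p = 0.125, the smallest possible).

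Esm1 levels showed the same order. Over all gated cells they were 75.3, 11.9, 143.0 and 0 CPM in run A and 101.4, 13.9, 36.7 and 5.7 CPM in run B, so in each run both high fat libraries lay below both chow libraries. In a fit of all 8 libraries with the run as a block, added after the data were seen, Esm1 fell with high fat diet by 2.77 ± 0.39 (SE) on the log2 scale in mesentery (adjusted p = 0.00112) and by 2.83 ± 0.48 in adipose (adjusted p = 0.00466). The diet effects in the 2 tissues differed by 0.06 ± 0.55 (adjusted p = 1.0). Without the run as a block Esm1 did not pass, with changes of -2.73 and -3.48 (adjusted p = 1.0 for both). With the block, 81 of 9920 genes passed for diet in mesentery (0.817% of those tested) and 46 in adipose (0.464%). The mesenteric decrease did not pass without mesentery chow B (-1.6, adjusted p = 0.838) or mesentery high fat B (-3.16, adjusted p = 0.988). That in adipose did not pass without adipose chow B (-5.05, adjusted p = 0.126) or adipose high fat B (-9.0, adjusted p = 0.945). Esm1 stayed lower on high fat diet in each of these fits. The gate removes cells with Adipoq or Cxcl9. With such cells kept, Esm1 in run B was 63.2, 10.9, 28.6 and 7.4 CPM, again lowest in the high fat libraries.

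Nepn was low in chow mesentery and highest in high fat adipose. It was counted in none of the gated cells of 3 run A libraries, where 33, 25 and 18 cells allow shares of up to 9.09%, 12.0% and 16.7%, and in 7.69% in adipose high fat A. In run B the shares were 2.15%, 15.81%, 13.92% and 21.54%. The diet difference in the share was 7.24 percentage points (exact permutation p = 0.286) and the tissue difference, mesentery minus adipose, was -6.3 (p = 0.371), neither beyond the spread of the libraries. Levels over gated cells in run B were 6.8, 63.6, 72.5 and 132.5 CPM. With the run blocked, Nepn rose with high fat diet in mesentery by 3.2 ± 0.5 (adjusted p = 0.00287) and was lower in mesentery than in adipose on chow, with a log2 difference of -3.37 ± 0.5 (adjusted p = 0.00251; 78 of 9920 genes passed there, 0.786%). The diet call was lost without mesentery chow B (7.38, adjusted p = 0.825), and without mesentery high fat B the value turned to -4.21 (adjusted p = 0.995). The tissue call was lost without mesentery chow B (-7.58, adjusted p = 0.692), adipose chow A (-3.39, adjusted p = 0.0575) or adipose chow B, where the value turned to 4.28 (adjusted p = 0.958). Without adipose high fat B, Nepn could not be tested. In adipose the diet change was 1.04 ± 0.37 (adjusted p = 0.652), and the difference between the tissues' diet changes did not pass either (2.16 ± 0.63, adjusted p = 0.566). Nepn had 2 or fewer UMIs per cell in mesentery chow B, and run A adds Nepn in 1 library only.

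Without drawing UMIs, Aplnr was the most even of the 3 genes. Its shares were 27.27%, 16%, 11.11% and 26.15% in run A and 22.31%, 36.13%, 16.62% and 28.56% in run B, with overlap between diets and between tissues. The diet difference was 7.38 percentage points (exact permutation p = 0.229), or 9.44 (p = 0.0286) after drawing 2000 UMIs per cell. Its level over gated cells was 169.5, 154.4, 57.2 and 236.5 CPM in run A and 120.5, 206.7, 93.8 and 172.2 CPM in run B, and neither diet comparison passed with the run as a block (0.57 ± 0.3 in mesentery, adjusted p = 0.961, and 1.13 ± 0.32 in adipose, adjusted p = 0.291). Taking the 3 genes together, positive cells were 35.38%, 49.74%, 34.58% and 45.06% of gated cells in run B. After drawing 2000 UMIs per cell the share over all 8 libraries was 36.7% ± 5.78 on high fat diet and 30.91% ± 1.97 on chow (SD, n = 4 each), a difference of 5.79 percentage points (exact permutation p = 0.143), or 3.89 (exact permutation p = 0.629) without drawing. The whole rule was applied again to the drawn UMIs, so cells whose excluded genes were lost re-enter and shallow cells leave: the gated cells went from 668 to 998 in adipose chow B and from 955 to 993 in mesentery high fat B. Shares with and without drawing are therefore not of the same cells. Without mesentery high fat A the diet difference in the drawn share of positive cells was 8.5 (exact permutation p = 0.0286). The tissue difference was -2.39 (exact permutation p = 0.571). UMIs of the 3 genes were rare in cells that should lack them: among immune cells of adipose high fat B, with a median of 12368 UMIs, 2.9% held Aplnr.

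**Figure D1:**
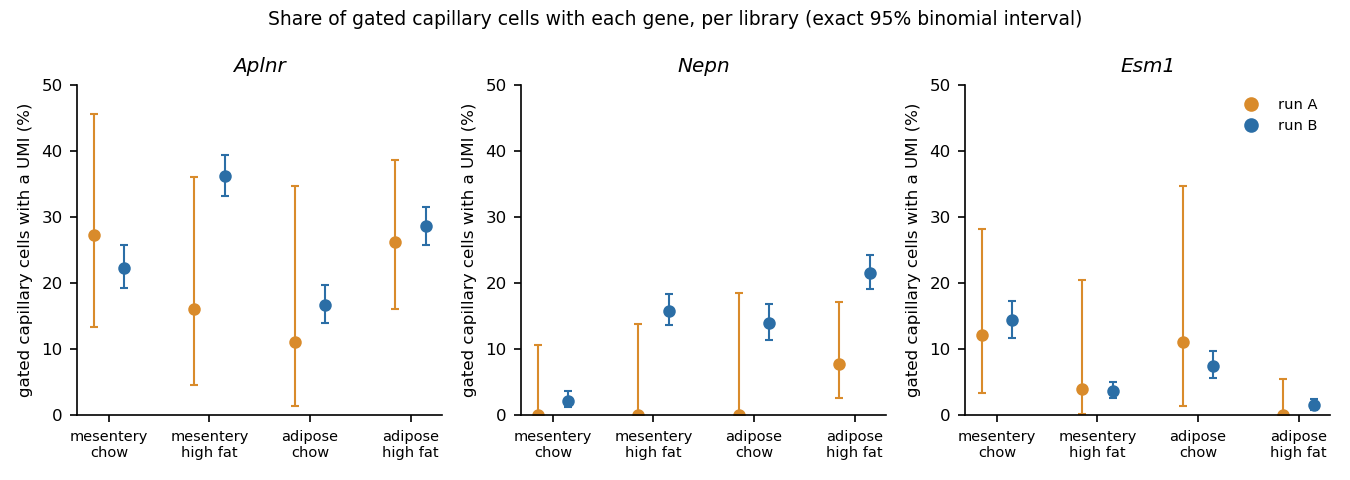
Percent of gated capillary cells with at least 1 UMI of Aplnr, Nepn or Esm1 (y axis) in each of the 8 libraries by tissue and diet (x axis), with exact 95% binomial intervals that cover counting error only; orange is run A and blue is run B. In these shares, taken without drawing UMIs, Esm1 is lower in the 4 high fat libraries, at 0% to 4.0%, than in the 4 chow libraries, at 7.49% to 14.31%.

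Set against negative capillary cells of the same libraries, positive cells as a whole had more transcript of vessel wall matrix genes and of the water channel Aqp1, and less of mural cell genes. For Aqp1 this was not so in cells of run B with Nepn as the only one of the 3 genes, as given below. The fit used the 6 libraries with at least 10 cells in both classes (mesentery chow A, adipose high fat A and the 4 of run B), with library as a block, and the 17 genes used to choose the cells were not tested. Of 8489 genes tested, 187 passed an adjusted p of 0.05 (2.2%), 76 higher (0.895%) and 111 lower (1.31%) in positive cells. Adjusted p here and below is from edgeR's quasi-likelihood test with Benjamini-Hochberg adjustment over all genes tested, and changes are on the log2 scale ± SE. The positive cells were chosen by 3 of their own genes and are the deeper of the 2 classes, so genes that go with these 3 or with depth enter the comparison. After drawing 2000 UMIs from each cell 161 of 6734 genes passed (2.39%; 77 higher, 1.14%, and 84 lower, 1.25%), 103 of them among the 187 and all 103 in the same direction.

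Aqp1, the water channel aquaporin-1, was 2817.3 CPM in positive cells of mesentery chow A and 1921.5 in adipose high fat A, and 1803.1, 1130.5, 880.1 and 773.4 CPM in run B. The negative cells of the same libraries had 863.7, 933.5, 840.5, 354.3, 491.7 and 272.6 CPM. Positive cells were above negative cells in 6 of 6 libraries, with a change of 1.27 ± 0.1 (adjusted p = 2.12e-07), or 1.33 after thinning (adjusted p = 1.22e-09). Col15a1, a collagen of the basement membrane zone, was higher in 6 of 6 libraries at 178.3 ± 119.0 CPM against 68.6 ± 81.0 (SD, n = 6 libraries), a change of 1.73 ± 0.2 (adjusted p = 1.77e-05). The spread is wide because libraries differ in level: in run B positive cells had 189.6, 203.2, 108.4 and 139.1 CPM and negative cells 55.5, 45.9, 11.4 and 75.0. Mest, an imprinted gene of growing tissue, changed by 1.64 ± 0.18 and was 18.2, 54.4, 52.8 and 38.9 CPM against 6.6, 16.4, 14.4 and 14.4 in run B. The LIM homeobox gene Lhx6 changed by 1.45 ± 0.2, with 44.4, 48.5, 16.7 and 36.1 CPM against 17.4, 19.3, 4.5 and 12.5 in run B. Thbs1, the angiogenesis inhibitor thrombospondin-1, changed by 1.32 ± 0.22, Rasa4, a Ras GTPase-activating protein, by 1.3 ± 0.16, Fam167b by 1.19 ± 0.17, Vwa1, a matrix protein, by 0.97 ± 0.15, and Kit, the stem cell factor receptor, by 0.91 ± 0.18. Cxcl16, a membrane-bound chemokine (1.03 ± 0.22), and Pald1 (0.97 ± 0.24) passed too, but Cxcl16 lost the call after thinning (adjusted p = 0.0783) and without mesentery chow B, and Pald1 without mesentery chow B or mesentery high fat B. Kit lost the call without mesentery high fat B or adipose chow B.

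The basement membrane is the sheet of matrix under the endothelium, made of type IV collagen, laminins, nidogens and perlecan. Of the 15 genes on the basement membrane list, 6 were higher in positive cells and none lower, with a median change of 0.41 against 0.0 over all genes tested. Col4a1 was 1878.2 ± 385.5 CPM against 1145.1 ± 289.7 (0.64 ± 0.08, adjusted p = 4.19e-05), higher in 6 of 6 libraries, and Col4a2 1099.3 ± 200.1 against 630.4 ± 179.4 (0.67 ± 0.1). The perlecan gene Hspg2 (0.51 ± 0.1), the laminin chain Lamb1 (0.54 ± 0.14), the nidogen Nid2 (1.17 ± 0.23) and Col15a1 were the others. Nid2 lost its call without adipose chow B or without mesentery high fat B, where the changes were 1.0 and 1.1. Among 7 tested integrins, the receptors that bind this matrix, Itga1 (0.36 ± 0.08), Itga5 (0.54 ± 0.13) and Itga6 (0.34 ± 0.08) were higher and none lower.

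Tip cell genes and VEGF co-receptors were also higher in part. Of 19 tested genes on the tip cell list, 6 were higher and none lower (median 0.41): Trp53i11, Nid2, the semaphorin receptor Plxnd1, the insulin-like growth factor binding protein Igfbp3, Lamb1 and the placental growth factor Pgf. Igfbp3 was 450.5 ± 363.2 CPM against 213.0 ± 170.4 (0.66 ± 0.16, adjusted p = 0.0281), higher in 6 of 6 libraries. Of 9 genes of the VEGF and apelin list, the co-receptors Nrp2 (0.87 ± 0.11, adjusted p = 6.46e-05) and Nrp1 (0.45 ± 0.08), and Pgf (1.54 ± 0.4), were higher and none lower. Pgf rested mostly on a few libraries, with 123.6 ± 210.2 CPM. Kdr, the main VEGF receptor, was 918.1 ± 204.2 against 744.9 ± 138.3 CPM and did not pass (0.27 ± 0.07, adjusted p = 0.0706), although it was higher in 6 of 6 libraries. Apln, the ligand of Aplnr, had 11.1, 38.5, 47.2 and 18.5 CPM in positive and 13.2, 38.0, 15.9 and 3.8 in negative cells of run B and did not pass (0.81 ± 0.29, adjusted p = 0.209).

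**Figure D2:**
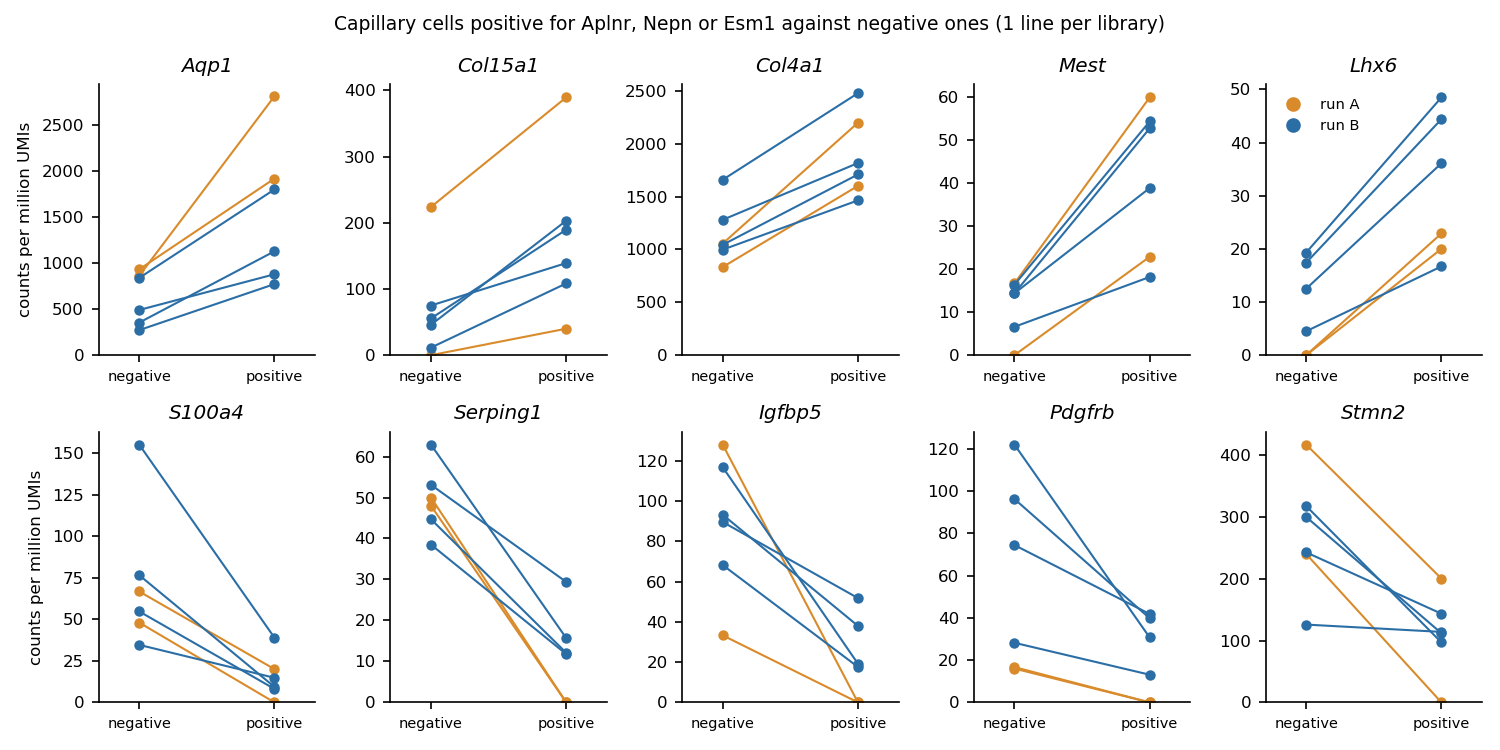
CPM (y axis) of 10 genes in negative and positive capillary cells, with 1 line for each of the 6 libraries in the fit; orange is run A and blue is run B. Aqp1, Col15a1, Col4a1, Mest and Lhx6 go up and S100a4, Serping1, Igfbp5, Pdgfrb and Stmn2 go down in 6 of 6 libraries.

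Most mural cell genes tested were lower in positive cells. Mural cells are the pericytes and smooth muscle cells that wrap capillaries and arterioles. Of 9 tested genes on the mural list, 7 were lower and none higher (median -1.29): Pdgfrb, Rgs5, Notch3, Abcc9, Kcnj8, Myh11 and Des. Pdgfrb, the receptor that recruits pericytes, was 20.9 ± 19.1 CPM against 58.9 ± 45.1, lower in 6 of 6 libraries, with a change of -1.39 ± 0.17 (adjusted p = 3.15e-05). The whole mural list summed in run B to 389.3, 523.8, 630.0 and 719.7 CPM in positive cells and to 587.1, 1443.8, 1993.9 and 1114.7 in negative cells. Run A was mixed: positive cells had 45.8, 382.7, 0 and 2602.0 CPM and negative cells 735.7, 94.8, 3342.2 and 466.7, so in both high fat libraries of run A, one of them (adipose) in the fit, the sum was higher in positive cells. The part of pericyte RNA or of pericyte and endothelial doublets in these differences was not tested. Genes of the nitric oxide and cGMP pathway that are abundant in pericytes, Gucy1a1 (-1.46 ± 0.18) and Gucy1b1 (-1.27 ± 0.21), were lower as well, and so was the vasoconstrictor gene Edn1 (-0.58 ± 0.14), the 3 lower genes among 7 tested on that list. The adipocyte list summed to 977.2, 153.3, 1826.0 and 92.6 CPM in positive and 1647.8, 199.0, 2603.0 and 112.5 in negative cells of run B. In run A it was 366.5, 95.7, 104.8 and 60.0 CPM in positive and 96.0, 0, 393.2 and 116.7 in negative cells, higher in positive cells of both mesentery libraries. In the fit 3 of its 6 tested genes were lower: Cfd (-0.89 ± 0.16), Retn (-0.75 ± 0.18) and Car3 (-0.42 ± 0.11).

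S100a4, a calcium-binding protein common in fibroblasts and migrating cells, was lower by the most among named genes. In run B it was 8.1, 14.8, 9.3 and 38.9 CPM in positive cells and 54.7, 34.6, 76.5 and 155.0 in negative cells, with a change of -2.08 ± 0.2 (adjusted p = 7.28e-07) over 6 libraries. The complement C1 inhibitor Serping1 changed by -1.54 ± 0.21, the binding protein Igfbp5 by -1.52 ± 0.2, the copper carrier ceruloplasmin Cp by -1.57 ± 0.27, the stress gene Gadd45b by -1.66 ± 0.25, Prune2 by -2.0 ± 0.36, Cystm1 by -1.32 ± 0.21, the polyamine enzyme Amd1 by -1.24 ± 0.2, the sodium pump regulator Fxyd1 by -1.14 ± 0.22 and the actin-severing protein gelsolin, Gsn, by -1.12 ± 0.21. Each was lower in 6 of 6 libraries. After thinning Gsn no longer passed (-0.65, adjusted p = 0.196), and Fxyd1 and Gucy1b1 lost their calls without mesentery high fat B, with changes of -0.9 and -1.06.

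Of 16 arterial genes 4 were lower in positive cells as a whole, none was higher and 12 did not pass (median -0.41). Stmn2 was 111.1 ± 65.6 CPM against 273.7 ± 97.0 (-1.11 ± 0.17, adjusted p = 0.000713), and Bmx (-0.99 ± 0.2), Fn1 (-1.3 ± 0.29) and Tm4sf1 (-0.34 ± 0.08) were the others. Of 8 tested venous genes, the adhesion molecule Vcam1 (0.87 ± 0.21) and the diaphragm protein Plvap (0.46 ± 0.11) were higher and none lower. In the BMP and TGF-beta list Bmp4 (1.39 ± 0.23) and Smad1 (0.41 ± 0.11) were higher and Tgfb2 (-1.54 ± 0.18) was lower, of 16 tested. Few lipid uptake genes passed: of 15 tested, the HDL receptor Scarb1 (0.52 ± 0.11) and the fatty acid carrier Fabp5 (0.38 ± 0.09) were higher and the lipase Pnpla2 lower. The fatty acid transporter Cd36 (0.01 ± 0.09, adjusted p = 0.992) and Fabp4 (-0.2 ± 0.09, adjusted p = 0.36) did not pass. None of 10 general endothelial, 11 cell cycle, 14 interferon, 12 glycolysis or 10 junction genes passed.

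Without library as a block no gene passed in edgeR, with 184 at an unadjusted p under 0.05. The count of calls was 79 without mesentery high fat B, 90 without mesentery chow B and 106 without adipose chow B, and every one of the 187 genes that could still be tested kept its sign in each of these fits.

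Cells that held Nepn as the only one of the 3 genes differed widely from cells that held Aplnr alone. The comparison used the 4 libraries of run B, with 11, 100, 80 and 157 Nepn-only and 123, 293, 92 and 225 Aplnr-only cells, and library as a block. Of 6501 genes tested, 509 passed (7.83%), 262 higher (4.03%) and 247 lower (3.8%) in Nepn-only cells. The subsets were chosen by Nepn and Aplnr themselves, which with the other genes of the rule were left out of the test. After thinning, 284 of 3676 passed (7.73%; 158 higher, 4.3%, and 126 lower, 3.43%), 242 of them among the 509.

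Col8a1, a short-chain collagen of vessel walls, separated the subsets completely. It was 13.7, 11.6, 13.8 and 19.7 CPM in Aplnr-only cells and 215.0, 242.0, 354.1 and 322.1 in Nepn-only cells, a change of 4.18 ± 0.18 (adjusted p = 2.29e-13), higher in 4 of 4 libraries. St8sia6, a sialic acid transferase, was 66.9 ± 13.0 CPM against 4.9 ± 2.1 (3.78 ± 0.32; SD, n = 4 libraries), Lrrc3b 62.6 ± 23.4 against 4.9 ± 3.6 (3.34 ± 0.33), and Crispld1 92.0 ± 24.8 against 13.9 ± 10.4 (3.1 ± 0.29).

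Arterial genes were the clearest group. Of 15 tested genes on the arterial list 13 were higher in Nepn-only cells and none lower, with a median change of 1.26 against 0.0 over all genes, although Gja5-positive cells had been removed. Stmn2 changed by 3.0 ± 0.28, the connexin Gja4 by 2.87 ± 0.23, the Notch target Hey1 by 2.72 ± 0.22, the elastic fibre protein Fbln5 by 2.71 ± 0.14, the semaphorin Sema3g by 2.48 ± 0.14, the arterial ephrin Efnb2 by 1.63 ± 0.13 and the transcription factor Sox17 by 0.75 ± 0.13. Hey1 was 29.3, 24.5, 13.8 and 24.9 CPM in Aplnr-only and 143.3, 138.5, 260.2 and 151.8 in Nepn-only cells. Fbln5 was 80.1, 113.7, 58.0 and 159.8 CPM against 382.2, 781.3, 645.6 and 964.8. Neither gene's ranges overlapped between the subsets. Within the Notch pathway, which specifies arteries, 6 of 11 tested genes were higher and none lower: Hey1, the ligands Jag1 (1.1 ± 0.24), Jag2 (0.69 ± 0.19) and Dll4 (0.64 ± 0.18), and the receptors Notch1 (0.63 ± 0.14) and Notch4 (0.65 ± 0.17). Of these 6, only Hey1 and Dll4 still passed after thinning. Venous genes went the other way where they passed: of 6 tested, the vein-specifying factor Nr2f2 (-1.23 ± 0.25) and Lrg1 (-1.26 ± 0.27) were lower and none higher. Among 17 tested transcription factors 6 were higher, including Gata2 (1.01 ± 0.18), the shear-responsive Klf4 (0.58 ± 0.12) and the hypoxia factor Epas1 (0.51 ± 0.11). Summed over all 16 genes of the arterial list, Nepn-only cells of run B had 8409.4, 9637.8, 8722.8 and 10818.4 CPM. Aplnr-only cells had 5055.3, 4517.6, 3139.7 and 4651.7, and negative cells 7909.6, 7976.5, 5879.5 and 7741.5. Negative cells thus lay between the subsets in each library, so part of the contrast is a low level in Aplnr-only cells. The orders against negative cells were not tested.

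The matrix genes divided the subsets in the opposite way. Of 15 basement membrane genes 8 were lower and 2 higher in Nepn-only cells (median -0.46). Col15a1 was 156.3, 231.1, 198.8 and 218.9 CPM in Aplnr-only and 0, 40.6, 19.3 and 42.6 in Nepn-only cells (-2.67 ± 0.2, adjusted p = 1.32e-09). Nid2 (-2.93 ± 0.39), Col4a1 (-0.7 ± 0.13), Col4a2 (-0.64 ± 0.11) and Hspg2 (-0.46 ± 0.13) were lower too, and Col18a1 (1.5 ± 0.2) and the laminin chain Lamb2 (0.5 ± 0.14) were higher. Aqp1 was 2774.8, 1417.2, 1941.2 and 1199.5 CPM in Aplnr-only cells and 262.8, 290.0, 226.4 and 136.2 in Nepn-only cells (-2.9 ± 0.15, adjusted p = 2.15e-12). In each library of run B Aplnr-only cells had more Aqp1 than Nepn-only cells, and also more than Esm1-only cells, at 571.0, 458.4, 264.9 and 363.7 CPM. Nepn-only cells also had less Aqp1 than the negative cells of each run B library, and less Col15a1 except in adipose chow B. Esm1-only cells had less Aqp1 than negative cells in the chow libraries and more in the high fat libraries. These orders against negative cells were not tested. Samd5 (-2.89 ± 0.38) and Rasa4 (-2.71 ± 0.32) were lower in 4 of 4 libraries.

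Tip cell genes passed in both directions. Of 16 tested tip cell genes 7 were lower and 3 higher in Nepn-only cells. Adm, the vessel-growth peptide adrenomedullin, had 1 count in Nepn-only and 97 in Aplnr-only cells, a ratio of CPM of 47.6 (95% counting interval 8.34 to 1900; the fitted change passed at adjusted p = 3.67e-06 but not with DESeq2). Apln had 2 and 133 counts, a ratio of 32.6 (8.85 to 272), and was too sparse for the fit. Angpt2, which loosens vessels, changed by -1.1 ± 0.34 and Plxnd1 by -0.63 ± 0.15. On the other side, the netrin receptor Unc5b (1.15 ± 0.23), Igfbp3 (1.27 ± 0.26) and Dll4 were higher in Nepn-only cells, as were the VEGF receptor Flt1 (0.54 ± 0.12) and the growth factor Vegfc (2.15 ± 0.24). In the BMP and TGF-beta list 5 of 15 were higher, among them Tgfbr2 (0.81 ± 0.13), Id1 (0.68 ± 0.12) and the inhibitor Smad6 (1.51 ± 0.3), and 2 were lower, Smad1 and Bmp4 (-1.24 ± 0.32). Edn1 was higher (1.61 ± 0.19). Kdr (0.19 ± 0.11, adjusted p = 0.407), Cd36 (0.31 ± 0.13, adjusted p = 0.165) and Fabp4 (0.19 ± 0.19, adjusted p = 0.718) did not pass.

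Of 8 tested mural genes Acta2 (2.22 ± 0.29), Rgs5 (0.88 ± 0.14) and Tagln (0.73 ± 0.21) were higher in Nepn-only cells and none lower, and the part of mural RNA in the arterial difference was not tested. The pericyte gene Pdgfrb was not among those that passed. The count of calls depended on the libraries: it was 145 without mesentery high fat B, 160 without adipose high fat B, 239 without adipose chow B and 704 without mesentery chow B, which holds 11 Nepn-only cells, and 245 without library as a block. Col8a1, St8sia6, Lrrc3b, Crispld1, Stmn2, Aqp1, Samd5 and Rasa4 passed without each of the 4 libraries in turn, and Adm and Nid2 passed in the 2 of these 4 fits in which they could be tested.

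Esm1-only cells, too, had more of 8 of 14 tested arterial genes than Aplnr-only cells, and far more Igfbp3 and Col13a1. Of 10 tested Notch genes Hey1, Dll4 and Notch1 were higher and none lower (median 0.35), and after thinning 1 of 7, Hey1, passed. The 2 comparisons share the Aplnr-only cells, so their values are given side by side and their overlap is not read. Against Aplnr-only cells in the 3 libraries of run B with at least 10 Esm1-only cells (74 in mesentery chow, 26 in mesentery high fat, 37 in adipose chow; adipose high fat had 9), 143 of 5168 genes passed (2.77%), 73 higher (1.41%) and 70 lower (1.35%). Igfbp3 was 1658.6, 1150.6 and 706.4 CPM in Esm1-only and 273.6, 68.5 and 146.4 in Aplnr-only cells (2.98 ± 0.19, adjusted p = 1.32e-53), and this separation held after thinning (2.94, adjusted p = 9.6e-06). With 3 libraries of run B, the small p of the full fit rests on a spread shared over genes, and not on these libraries alone. Col13a1, a transmembrane collagen, was 142.0, 65.5 and 88.3 CPM against 19.5, 3.7 and 11 (3.16 ± 0.41, adjusted p = 1.58e-11). The glycoprotein hormone gene Stc1 was 85.4 ± 19.6 CPM against 9.3 ± 6.3 (3.03 ± 0.42; SD, n = 3 libraries). Hey1 changed by 2.94 ± 0.3, with 214.5, 168.4 and 170.3 CPM against 29.3, 24.5 and 13.8, and Gja4 by 2.68 ± 0.33.

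Of 14 tested arterial genes 8 were higher and 2 lower in Esm1-only cells (median 0.72). Efnb2 changed by 1.67 ± 0.21 and Sema3g by 1.52 ± 0.23, while Fbln2 (-0.86 ± 0.19) and Mgp (-0.82 ± 0.25) were lower. Summed over the arterial list, Esm1-only cells of the 3 libraries had 9229.6, 5379.0 and 4976.5 CPM. Aplnr-only cells had 5055.3, 4517.6 and 3139.7, and negative cells 7909.6, 7976.5 and 5879.5. Esm1-only cells thus lay above negative cells in mesentery chow and below them in mesentery high fat and adipose chow, which was not tested. Against Aplnr-only cells, 6 of 15 tip cell genes were higher and 2 lower. Among those higher were Igfbp3, the chemokine receptor Cxcr4 (2.26 ± 0.35), Dll4 (1.23 ± 0.24), Unc5b (1.42 ± 0.34) and Kdr. Kdr (0.65 ± 0.17, adjusted p = 0.00516) did not pass without any 1 of the 3 libraries, with changes of 0.56 to 0.7, nor after thinning (0.49, adjusted p = 0.259). The companion receptor Flt1 was higher by 0.91 ± 0.17. In the insulin and IGF list 4 of 7 were higher and none lower, among them the insulin receptor Insr (1.69 ± 0.31), Igfbp5 (1.7 ± 0.38) and Igfbp4 (0.94 ± 0.28). The activin subunit Inhbb changed by 1.94 ± 0.35. Of 14 interferon-stimulated genes 4 were higher (Ifi47, Irf7, Ifit3 and Gbp2, 0.88 to 1.36) and none lower, and of these none with a value after thinning passed there.

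Some venous and lipid genes were lower in Esm1-only cells. Of 6 tested venous genes Nr2f2 (-2.19 ± 0.4), Vcam1 (-1.62 ± 0.45) and Vwf (-1.24 ± 0.35) were lower and Plvap (1.32 ± 0.18) was higher. Of 12 lipid uptake genes Fabp5 (-1.37 ± 0.17) and lipoprotein lipase, Lpl (-0.89 ± 0.19), were lower and none higher, while Cd36 (-0.11 ± 0.17, adjusted p = 0.933) and Fabp4 (-0.12 ± 0.23, adjusted p = 0.941) did not pass. Samd5 had 3 counts in Esm1-only and 158 in Aplnr-only cells, a ratio of CPM of 12.5 (95% counting interval 4.21 to 61.3), and Prelp, a matrix proteoglycan, 2 and 105 counts (12.5, 3.37 to 104). The polyamine enzyme Odc1 (-2.83 ± 0.48), Cxcl16 (-2.73 ± 0.64) and Lhx6 (-2.58 ± 0.54) were lower in 3 of 3 libraries. No basement membrane gene of 15 tested passed.

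These Esm1 counts rest on few cells. Calls numbered 46 without mesentery chow B, 70 without mesentery high fat B and 85 without adipose chow B, 32 with DESeq2, 23 without library as a block and 29 of 2476 after thinning (1.17%; 18 higher, 0.727%, and 11 lower, 0.444%). Without mesentery chow B, Col13a1 (3.54), Stc1 (2.88), Gja4 (2.12) and Samd5 (-2.24) no longer passed, and without mesentery high fat B, Cxcl16 (-2.51) and Lhx6 (-2.24) did not. Igfbp3, Hey1, Odc1 and Prelp passed without each library in turn.

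Set directly against Nepn-only cells in the same 3 libraries, Esm1-only cells differed in 14 of 4198 genes (0.33%), 8 higher (0.191%) and 6 lower (0.143%). Igfbp3 (2.05 ± 0.37), Plvap (1.38 ± 0.21), Inhbb (2.18 ± 0.44), Pcp4l1 (3.96 ± 0.7) and Ivns1abp (2.1 ± 0.42) were higher. Col13a1 had 68 counts in Esm1-only and 0 in Nepn-only cells, at least 37.9-fold higher against a floor of 3 counts over the Nepn-only group. Col8a1 (-3.38 ± 0.39), Fbln5 (-2.27 ± 0.25), the taurine transporter Slc6a6 (-2.1 ± 0.31), Cd59a (-1.8 ± 0.35), Fabp5 (-1.32 ± 0.24) and Sema3g (-1.12 ± 0.24, adjusted p = 0.0398) were lower. None of 10 Notch genes passed between these subsets, with a median of -0.03. After thinning 14 of 2012 passed (0.696%; 6 higher, 0.298%, and 8 lower, 0.398%). In edgeR no gene passed without mesentery high fat B or without adipose chow B (177 and 216 genes had an unadjusted p under 0.05), and 44 did without mesentery chow B. DESeq2 called 8 over the 3 libraries.

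**Figure D3:**
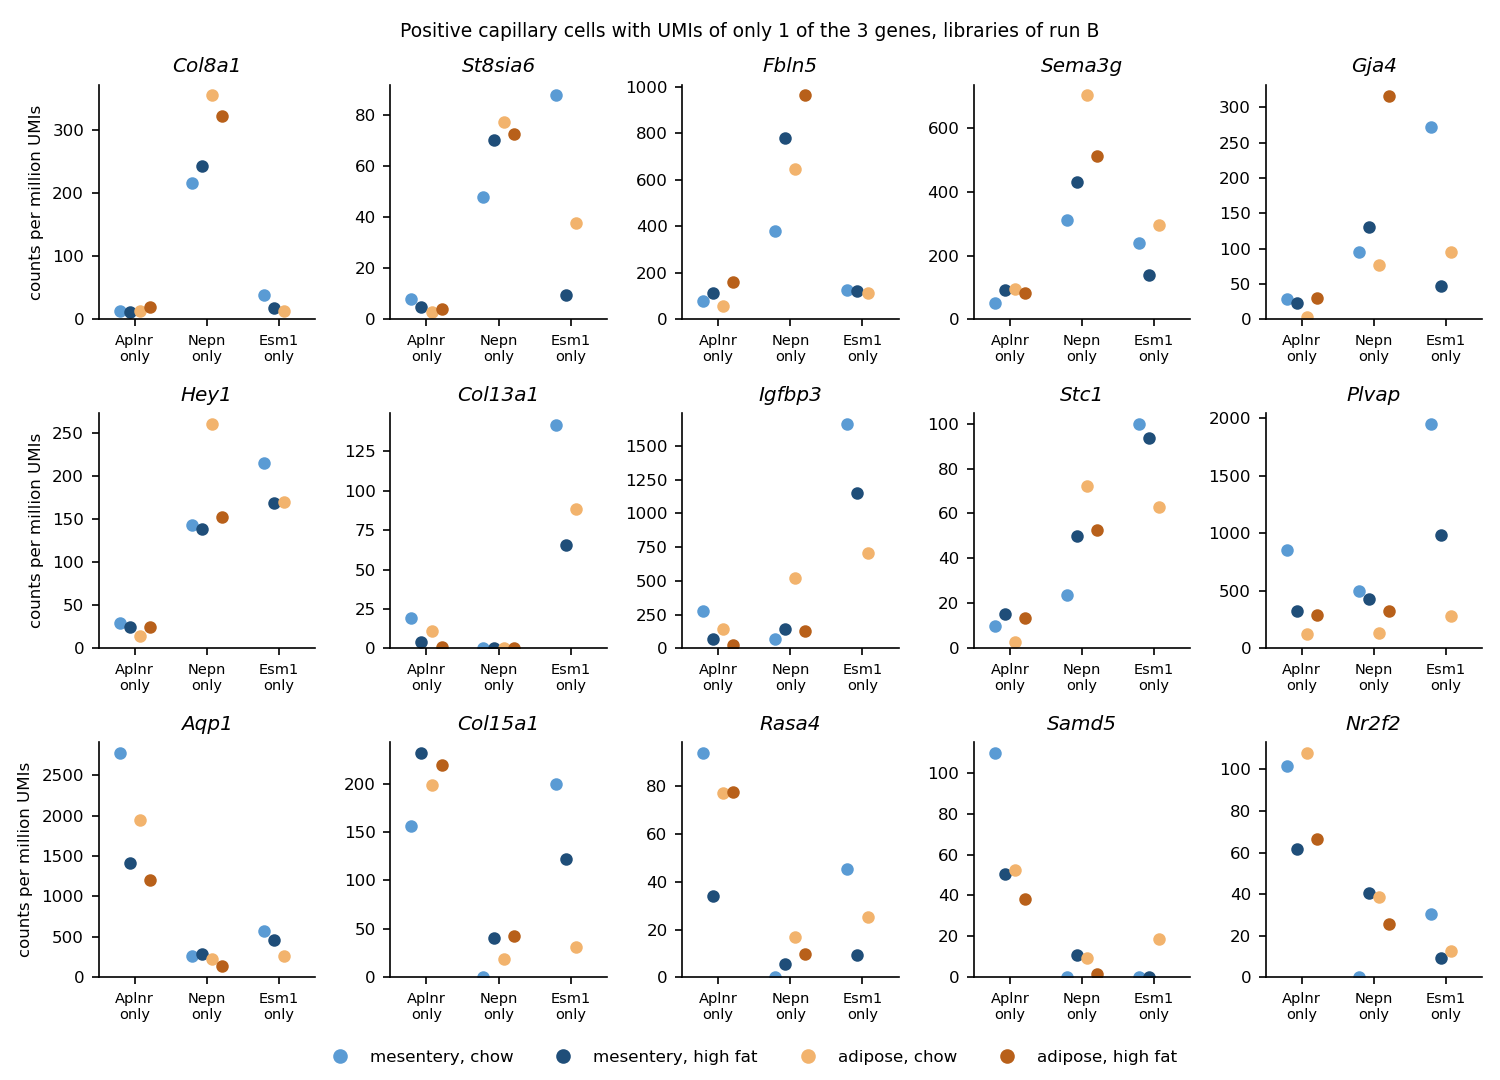
CPM (y axis) of 15 genes in positive cells of run B that held only Aplnr, only Nepn or only Esm1 (x axis), 1 point per library, with the 9 Esm1-only cells of adipose high fat left out. Col8a1 and Fbln5 are high in Nepn-only cells, Col13a1 and Igfbp3 in Esm1-only cells, Hey1 in both, and Aqp1, Samd5 and Nr2f2 in Aplnr-only cells.

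**Figure D4:**
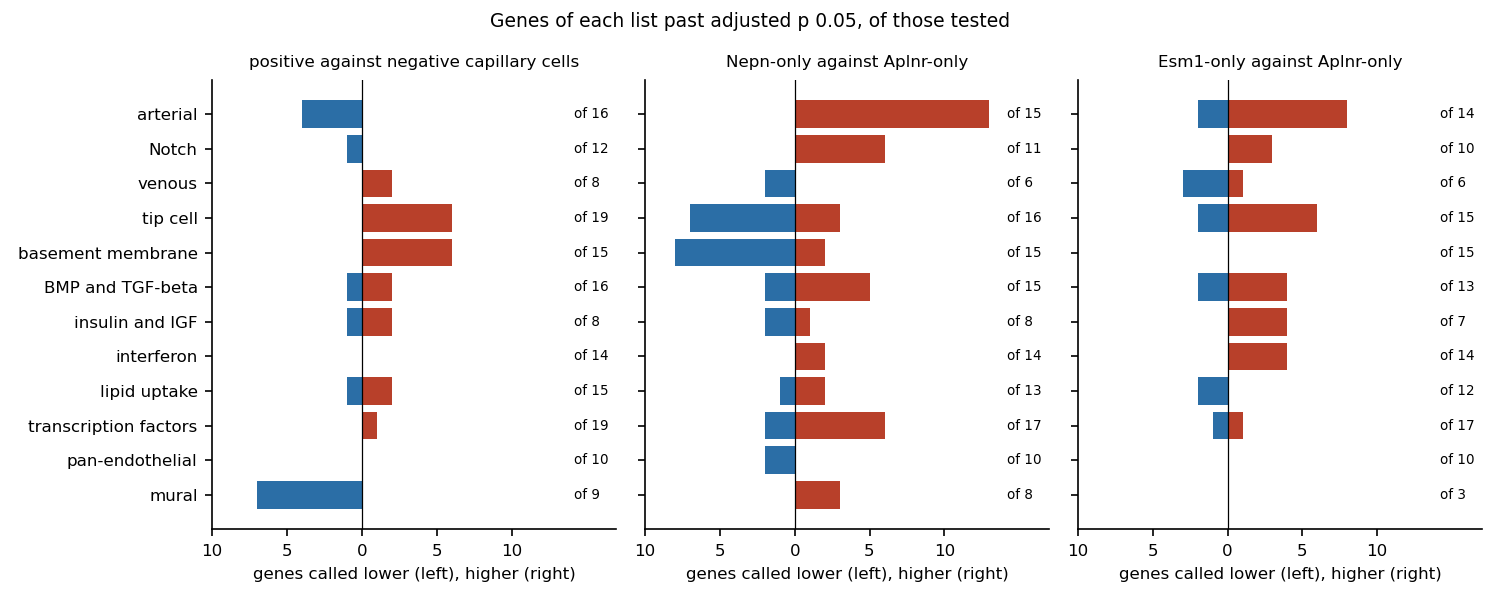
Number of genes of each list that were higher (right, red) or lower (left, blue) at an adjusted p of 0.05, with the number tested, in positive against negative cells and in Nepn-only and Esm1-only against Aplnr-only cells. Arterial genes number 13 of 15 higher in Nepn-only cells and 8 of 14 in Esm1-only cells, and 4 of 16 lower in positive cells as a whole.

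Cells in division were rare. Among positive cells, those with at least 2 of 7 mitotic genes were 4 of 92 Aplnr-only cells in adipose chow B (4.35%, exact 95% interval 1.2 to 10.76), 1 of 2 in adipose chow A, 4 of 293 in mesentery high fat B and 1 of 225 in adipose high fat B. Among Nepn-only cells there was 1, of 100 in mesentery high fat B, and among Esm1-only cells none. Negative cells had 2 of 480 in mesentery high fat B, 5 of 437 in adipose chow B and 4 of 556 in adipose high fat B (0.72%, against 0.22% of all positive cells there). These counts are too small to order the groups.

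Diet and tissue were then compared within the positive cells, over library sums. Of the 6 libraries with at least 10 positive cells, mesentery high fat and adipose chow have 1 each (run B), so every comparison sets at least 1 lone library against others, and that library is assumed to vary like the groups with 2. With 1 mean per group, no gene of 9794 passed in edgeR for diet in either tissue, tissue on either diet or their interaction (0.0% each; 122, 96, 204, 40 and 86 genes had an unadjusted p under 0.05, and DESeq2 called 0, 1, 1, 0 and 0). In this fit the genes with the smallest p included Pcp4l1 (-4.92 ± 0.82) and Lgals3 (4.59 ± 0.82) for diet in mesentery, Car3 (-4.77 ± 0.67) and Cdo1 (-5.95 ± 0.89) for diet in adipose, Plvap (3.45 ± 0.61) for mesentery against adipose on chow, Nkx2-3 and Chga for the same on high fat diet, and Cenpf and Hist1h2ap for the interaction, each with an adjusted p of 1.0. The 2 runs differed strongly: immediate-early genes, which respond to tissue handling, summed to 7863.3 to 18392.5 CPM in positive cells of run A and 931.5 to 1095.4 in run B.

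A fit of all 8 libraries with the run as a block, added after the data were seen, called 88 of 7770 genes for diet in mesentery (1.13%; 25 higher, 0.322%, and 63 lower, 0.811%) and 40 in adipose (0.515%; 17 higher, 0.219%, and 23 lower, 0.296%). It called 122 genes between the tissues on chow (1.57%; 67 higher in mesentery, 0.862%, and 55 lower, 0.708%) and 16 among high fat libraries (0.206%; 3 up in mesentery, 0.0386%, and 13 down, 0.167%). The interaction had 33 calls (0.425%; 11 higher, 0.142%, and 22 lower, 0.283%). Run A contributes 4 to 21 cells per library, so these calls rest on run B: without the run B library of a compared group the count was 0, except for 1 for tissue on high fat diet without adipose high fat B. Its small p-values rest on a spread shared over genes, and not on the spread between these few libraries alone. The values below come from this fit and are read with these limits.

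Some genes that were higher in Esm1-only cells fell with high fat diet. Not all did: in adipose Gja4 changed by 1.47 ± 0.43 (adjusted p = 0.138). Igfbp3 was 893.3, 143.5, 209.7 and 300.2 CPM in run A and 892.5, 125.9, 413.2 and 77.9 in run B, and fell by 2.74 ± 0.38 in mesentery (adjusted p = 4.94e-07) and by 1.76 ± 0.41 in adipose (adjusted p = 0.0148); in adipose the decrease was seen in run B only. Pcp4l1 was 160.3, 47.8, 314.5 and 0 CPM in run A and 107.9, 3.7, 31.5 and 3.8 in run B, lower on high fat diet in both tissues and both runs (-4.55 ± 0.55 and -3.18 ± 0.64). Its run A values rest on a few UMIs at most, from 13, 5, 4 and 21 cells, so the order there is weak. Esm1-only cells fell from 74 to 26 in mesentery and from 37 to 9 in adipose of run B, so the makeup of the positive cells moved with diet. Within Aplnr-only cells of run B, which hold no counted Esm1, Igfbp3 was 273.6 CPM on chow and 68.5 on high fat diet in mesentery and 146.4 and 23.9 in adipose, with 1 library per group and no test. Plvap, high in mesenteric endothelium, was 2038.5, 1100.2, 838.8 and 340.3 CPM in run A and 1390.6, 371.3, 141.7 and 297.2 in run B. Plvap fell with diet in mesentery by 1.65 on the log2 scale and was higher in mesentery than in adipose on chow (3.02 ± 0.39, adjusted p = 1.46e-07). In adipose its diet change was 0.8 ± 0.39 and did not pass. The diet changes of the 2 tissues differed by -2.45 ± 0.51 (adjusted p = 0.00417).

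Among genes that rose with high fat diet in mesentery were Angptl4, an inhibitor of lipoprotein lipase, Lgals3, Cldn5, Col18a1 and Chga. Angptl4 was 0, 382.7, 104.8 and 560.4 CPM in run A and 65.5, 348.7, 249.2 and 386.9 in run B (2.56 ± 0.41 in mesentery, adjusted p = 1.1e-05). Cldn5, the main tight junction claudin of endothelium, was 733.0, 4305.2, 3040.5 and 4103.1 CPM in run A and 594.0, 1810.9, 2295.7 and 1860.6 in run B; it rose by 1.87 in mesentery and was lower in mesentery than in adipose on chow (-1.77). In both runs the chow mesentery library was the lowest of the 4 for both genes. Lgals3, galectin-3, was 4.0, 90.0, 26.9 and 135.3 CPM in run B (4.43 ± 0.65 in mesentery and 2.47 ± 0.46 in adipose). Over both runs Lgals3 had 243 counts in mesentery high fat and 4 in mesentery chow, all of them in run B, so its mesenteric rise rests on 1 library per group. The immune marker C1qb had 31 counts in mesentery high fat and 0 in mesentery chow. The part of immune RNA in the Lgals3 rise was not tested. Chga, the secretory granule protein chromogranin A, had 94 counts in mesentery high fat and 1 in mesentery chow, a ratio of CPM of 35.7 (95% counting interval 6.26 to 1430). The fatty acid carrier Fabp5 rose in adipose (1.82 ± 0.4, adjusted p = 0.00522), with 1630.5 CPM on chow and 3246.9 on high fat diet in run B and 209.7 and 3222.4 in run A, where chow has 4 cells. Wfdc17, an immune gene, had 93 counts in adipose high fat and 0 in adipose chow, at least 15.7-fold higher against a floor of 3 counts over the group. Immune markers summed to 32.3, 68.9, 9.3 and 421.6 CPM in run B, highest in the same library, and the part of immune RNA in this was not tested.

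Genes that fell included adipocyte genes in both tissues. Cfd, the adipocyte protein adipsin, was 388.2, 3.7, 462.3 and 4.3 CPM in run B (-6.68 ± 0.55 in mesentery) and Car3 401.4, 82.9, 956.1 and 33.2 (-4.56 ± 0.46 in adipose). Of 6 tested adipocyte genes 4 fell in mesentery and 5 in adipose, and the list's sum fell with diet in negative cells too, from 1647.8 to 199.0 and from 2603.0 to 112.5 CPM. The part of free adipocyte RNA in these changes was not tested. Scd1, the fatty acid desaturase, fell by 3.41 ± 0.43 in adipose. The desmosomal cadherin Dsg2 had 0 counts in mesentery high fat and 36 in mesentery chow, at least 31.6-fold lower, and Proser2 had 2 and 42 (a ratio of 55.2, 14.4 to 471). The semaphorin Sema3c had 3 and 23 counts (20.2, 6.09 to 105). Of 9 tested venous genes 4 fell with diet in mesentery (Il1r1, Icam1, Vcam1 and Plvap) and none rose.

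Nkx2-3, a homeobox gene of gut and mesenteric endothelium, was counted in mesentery alone: 22.9 and 0 CPM in run A and 59.5 and 15.5 in run B on chow and high fat diet, and 0 in all 4 adipose libraries. On chow it had 60 counts against 0 (at least 21.0-fold higher in mesentery), and on high fat diet 42 against 0 (at least 11.1-fold). Within mesentery it fell with diet by 1.92 ± 0.49 (adjusted p = 0.0259). Other genes higher in mesentery on chow were Vcam1 (3.92), the forkhead factor Foxf1 (4.27) and the sialomucin Emcn (1.39), and genes higher in adipose were Angptl4 (-1.96), Pgf (-2.97), Fbln5 (-1.61) and the adipogenic nuclear receptor Pparg (-1.59). Of 9 venous genes 5 were higher in mesentery on chow and none lower. The mitotic gene Top2a had 33 counts in adipose chow against 0 in mesentery chow (at least 10.5-fold lower there), but in run B these counts lie with the 4 mitotic cells of adipose chow described above. MHC class II genes were higher in mesentery on chow, 4 of 4 tested, and lower on high fat diet, 2 of 4 (Cd74 and H2-Eb1). The other genes lower in mesentery on high fat diet included 4 haemoglobin genes (Hbb-bs, Hbb-bt, Hba-a1 and Hba-a2) and the immune genes Wfdc17, Lyz2 and C1qb, 9 of the 13 with the MHC genes. In run B haemoglobin genes summed to 74.6, 15.9, 640.2 and 5215.8 CPM, highest like the immune markers in adipose high fat B, where 4 positive cells held at least 10 haemoglobin UMIs. The part of red cell and immune RNA in these calls was not tested. Apln, Kdr, Cd36 and Fabp4 passed in none of the 5 comparisons.

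**Figure D5:**
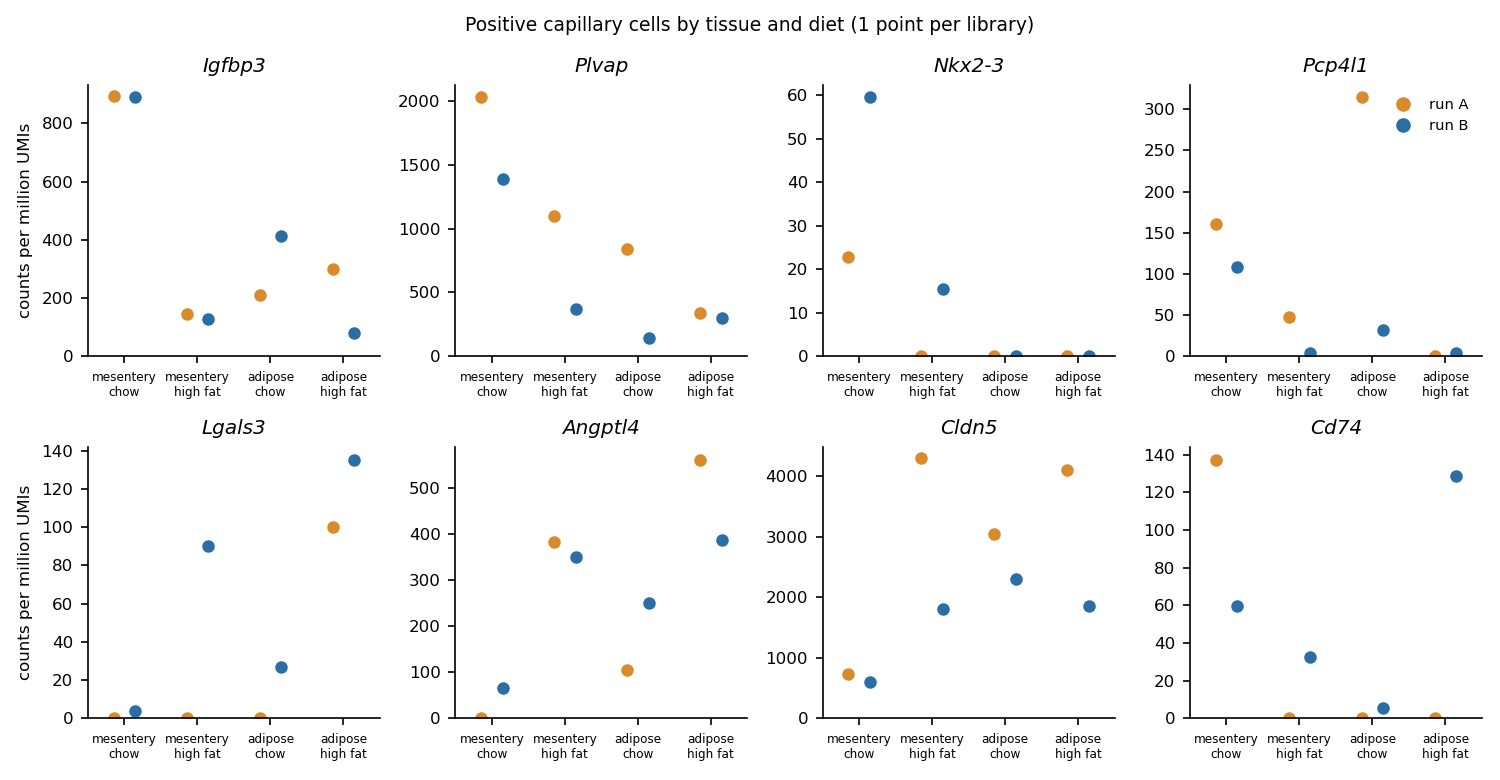
CPM (y axis) in positive capillary cells by tissue and diet (x axis), 1 point per library; orange is run A with 4 to 21 cells per library and blue is run B with 230 to 475. Igfbp3 is highest in both chow mesentery libraries and Angptl4 and Cldn5 are lowest there, while Lgals3 and Cd74 differ between the runs.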

How the data were processed

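Tissue from 6 mice per library was sorted by flow cytometry and run on the 10x 3′ platform with about 5000 cells targeted; the gates were not seen here. The authors deposited raw UMI counts per gene and barcode for 8 libraries. Per the file headers, matrices of run A carry version 3.0.2 and those of run B 5.0.0 of the counting software, and the submitters' processing notes name Seurat 4.3.0 and the mm10 genome. Reads shared by overlapping genes or close paralogs cannot be told apart in these counts. Counts of 30406 genes found in both runs were summed per library and class of cells in Python 3.11.15, and positions were taken from an annotation of GRCm38. The deposited counts were tested with edgeR 4.0.16 (TMM scaling, filterByExpr, glmQLFit with legacy = FALSE, glmQLFTest, R 4.3.3), with DESeq2 1.42.0 as an alternative, at an adjusted p of 0.05. Comparisons between classes had library as a block; diet and tissue were fitted to libraries with at least 10 positive cells, without and with the run as a block. The run letters pair the libraries: deviations from the group means correlated at 0.11 to 0.2 between every pair of groups over 6300 genes in positive cells, and at 0.27 to 0.41 over 6254 genes in all gated cells. The labels call the 2 runs independent repeats. The p-values of fits over both runs take in the spread between such pools, but with so few libraries they lean on a spread shared over genes. The fits of Nepn-only and Esm1-only cells hold run B alone, so their p-values carry no spread between runs. With 3 or 4 libraries they too lean on a spread shared over genes.

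Simulated counts had the same spread for every gene and no difference in level between libraries or runs, unlike these data. Changes were put only into genes with higher counts, so the rates are those of the simulation. On such counts the fit of positive against negative cells recovered 25.5% of 2-fold and 95% of 4-fold changes with 1.9% false calls. It recovered 80.4% of 4-fold changes for Nepn-only against Aplnr-only cells, 62.8% for Esm1-only against Aplnr-only and 48.2% for Esm1-only against Nepn-only. The diet fit recovered 0% of 4-fold changes without and 9.1% with all libraries and the run as a block. With legacy = TRUE 37.9% of the simulated diet calls were false, so that setting was kept as an alternative only. Shares were compared by exact permutation over libraries, with exact binomial 95% intervals, which like the limits from a count of 0 (3 counts) cover counting error only. Genes are named by a rule (past the threshold, same sign in every library, at least 20 CPM, the 12 largest changes each way for positive against negative cells and 5 elsewhere, and the 2 smallest p where a fit called none), plus Apln, Kdr, Cd36, Fabp4 and Nkx2-3 and the genes of 34 lists that passed. The cells, genes and lists were chosen with earlier results of these data known. Alternatives left out the filter, doublets, the blocks or each library, thinned cells to 2000 UMIs, or required 4 of the 6 capillary genes. Results for some genes that the rule or the lists would name are not reported here.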

Additional observations from a re-analysis of the deposited data

Results flagged for a closer look

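Of the comparisons in positive capillary cells, the tissue by diet interaction (the diet change in mesentery minus that in adipose) passed for 33 of 7770 genes in the fit of all 8 libraries with the run as a block. The naming rule picked 10 of them, described here. Others that passed included Plvap (-2.45), Vcam1 (-3.88), Gja4 (-2.92), Mgp (-2.9), Fam167b (-3.12) and Col18a1 (3.1). The haemoglobin genes Hba-a1, Hba-a2 and Hbb-bs passed too. In 5 mitotic genes the diet change was higher in mesentery: Cenpe, a kinesin of the kinetochore (9.64 ± 1.93, adjusted p = 0.00261), the cyclin Ccnb2 (8.84 ± 1.71, adjusted p = 0.00158), the cohesin protector Sgo2a (8.19 ± 1.85, adjusted p = 0.00996), the topoisomerase Top2a (8.15 ± 1.82, adjusted p = 0.00923) and survivin, Birc5 (5.98 ± 1.27, adjusted p = 0.0049). Top2a was 0, 5.2, 29.6 and 3.8 CPM in mesentery chow, mesentery high fat, adipose chow and adipose high fat of run B, and 0, 0, 104.8 and 0 in run A. Few cells carry these values: cells with at least 2 of 7 mitotic genes were 6 of 475 positive cells in mesentery high fat B, 4 of 231 in adipose chow B, 1 of 4 in adipose chow A and 1 of 456 in adipose high fat B. The fitted sizes depend on counts of 0 in chow mesentery and are no bounds.

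In the other direction were 3 genes of MHC class II antigen presentation, H2-Ab1 (-8.67 ± 1.55, adjusted p = 0.000464), Cd74 (-5.56 ± 0.8, adjusted p = 3e-06) and H2-Aa (-5.01 ± 1.07, adjusted p = 0.00494), together with the nucleic acid sensor Zbp1 (-4.9 ± 1.2, adjusted p = 0.0274) and the protease inhibitor Serpine2 (-4.4 ± 0.85, adjusted p = 0.00158). Cd74 was 59.5, 32.6, 5.6 and 128.7 CPM in run B and 137.4, 0, 0 and 0 in run A. The high value of adipose high fat B lies in the library where immune markers summed to 421.6 CPM and haemoglobin genes to 5215.8 CPM, the latter with 4 cells of 10 or more haemoglobin UMIs. The part of immune RNA in this was not tested.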

How the results depend on the processing

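Shares: drawing 2000 UMIs per cell gave a diet difference of -8.35 for Esm1 (exact permutation p = 0.0571) and 9.44 for Aplnr (p = 0.0286), and a tissue difference of -0.79 for Aplnr. Within pairs of the same tissue and run, the replicate block, Esm1 differed by -8.97 (exact sign-flip p = 0.125, the smallest possible). Leaving out 1 library gave -10.23 to -7.96 for Esm1 by diet and 4.0 to 8.5 for positive cells by diet. The tissue difference of positive cells was 0.38 with 1000 UMIs drawn and 2.59 without drawing. Positive against negative cells: 187 calls became 333 with the legacy setting, 290 without the filter, 0 with no replicate block, 372 in run B alone, 102 with 4 of 6 capillary genes required and 79 to 228 without 1 library. Nepn-only against Aplnr-only: 509 became 284 thinned, 273 with DESeq2, 245 with no replicate block and 145 to 704 without 1 library. Esm1-only against Aplnr-only: 143 became 29 thinned, 32 with DESeq2, 56 without the filter, 23 with no replicate block and 46 to 85 without 1 library. Esm1-only against Nepn-only: 14 became 8 with DESeq2, 34 with the legacy setting and 0 to 44 without 1 library.

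Diet and tissue gave 0 calls in the planned fit and with its replicate block. With all libraries and the replicate block, diet in mesentery gave 88 calls (7 with DESeq2, 74 without doublets, 77 with the legacy setting; 48 in the planned fit with the legacy setting), diet in adipose 40 (1, 27, 37; 32, and 1 in the planned fit with DESeq2), tissue on chow 122 (1, 110, 110; 60, and 1), tissue on high fat diet 16 (1, 11, 22; 17) and the interaction 33 (26 without doublets, 29 legacy; 24). Leaving out 1 library gave 0 to 96, 0 to 72, 0 to 132, 0 to 34 and 0 to 45 calls in these 5 comparisons. Without adipose high fat B the interaction turned positive for Cd74 (4.19), H2-Aa (3.38), Zbp1 (2.23) and Serpine2 (1.58, or 3.88 with all libraries), and without mesentery high fat B that of Birc5 became -1.5; over these fits they ran from -5.81 to 4.19, -5.43 to 3.38, -5.15 to 2.23, -10.9 to 3.88 and -1.5 to 13.2. The cause was not tested. Over 2258 values of 140 named gene results, 1846 kept direction and call, 314 gained and 92 lost the call and 6 reversed; 106 sign changes of values called in no fit are counted among the 1846. The fits of a stricter membership by group, and some without 1 library, could not be fitted because too few libraries remained. Run A, with 4 to 21 positive cells per library, limits every diet and tissue comparison.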
